A study of Mus musculus with 2 samples.

Results

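The solute carrier (SLC) genes of the mouse were examined in back skin with and without a permanently active aryl hydrocarbon receptor (AhR) in the keratinocytes. Members were chosen by symbol alone: every gene on the array whose name starts with Slc, a family number, the letter a and a member number. This gave 244 of the 12393 genes that could be named, in 48 families. They were sorted by family number, and for some genes by their known substrate, into 5 classes of main interest (amino acid, glucose, organic ion, zinc and fatty acid carriers, 102 genes together) and other classes. Among the 244, 3 share the name without being carriers, Slc9a3r1 and Slc9a3r2, which are scaffold proteins, and Slc4a1ap, an adaptor protein.

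Both groups were 10-day-old mice, and total RNA from their peeled back skin was biotin-labelled for 1-colour arrays. The transgenic array, titled K14Ahr, holds mice whose keratinocytes express a constitutively active AhR, and the wild-type array holds non-transgenic littermates. There is 1 array per genotype, with the number of animals behind each not stated in the labels. No difference could therefore be tested, no value has a replicate error, and all comparisons below describe these 2 arrays only. K14 in the title names keratin 14, a keratin of basal keratinocytes, while the RNA came from whole skin with its hair follicles, fibroblasts, pigment cells, leukocytes, vessels, fat and muscle.

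Solute carriers are membrane proteins that move small molecules across the plasma membrane and the membranes of organelles, either down a gradient or coupled to the movement of sodium, protons or another solute. In skin they feed keratinocytes with glucose and amino acids, export lactate, supply zinc and deliver the fatty acids used for barrier lipids. AhR, a transcription factor switched on by dioxins and other ligands, pairs with ARNT, binds DNA sites with the core letters GCGTG and induces enzymes of xenobiotic metabolism.

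The deposited signals run from 0 upward in arbitrary units, and both arrays have the same 2% trimmed mean (100.03). Signals under a floor of 34.7, the 40th percentile of all signals, were treated as not measurable, and a gene with 1 array under the floor has a ratio that is only a bound ("at least"). A gene is represented by its brightest probe set. The arrays carried the marks of their labels: the AhR target Cyp1a1 read 1802 on the transgenic and 40.8 on the wild-type array. All 5 measured genes of a list of 7 AhR targets were at least 2-fold higher, as were 2.27% of all measured genes. Of the 5, Nqo1 (83.6 against 21.8) was under the floor on the wild-type array, a bound that could only lie above 0. The 2 measured probe sets of Ahr itself read 135.8 against 108.5 and 60.1 against 44.2, and whether they also read the transgene is not known here. All 7 keratinocyte marker genes on the array were measured, so the labelled tissue is represented.

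Taken as a family, the SLC genes spread around equality much as the other genes of the array did. Of the 244 members, 159 (65.2%) were above the floor on at least 1 array, 144 of them on both, against 71.8% of all named genes. The median log2 ratio of signal, transgenic over wild-type array, was -0.05 both for the 159 members and for all 8894 measured genes. The lower and upper quartiles were alike too, -0.25 and 0.17 for the members and -0.26 and 0.18 for all genes. Ratios above 0 were found for 69 members (43.4%) and for 43.6% of all measured genes. At least 2-fold higher were 2 members, or 1.26%, where 2.27% of all measured genes were. At least 2-fold lower was 1 member, or 0.629%, where 1.09% of all measured genes were. At a limit of 1.5-fold the counts were 9 higher and 9 lower (5.66% each), beside 6.80% and 6.38% of all measured genes. Of the higher members, Slc2a3 and Slc39a13 were bounds, measured on the transgenic array only. Among the 144 members above the floor on both arrays 7 were higher (4.86%) and 9 lower (6.25%). The shares of all genes above the floor on both arrays were 6.16% and 5.93%. These shares are close to or under the array's background, so the counts say nothing particular about solute carriers. Most members barely differed, with 97 (61.0%) under a 1.2-fold difference, beside 57.2% of all measured genes.

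**Figure D1:**
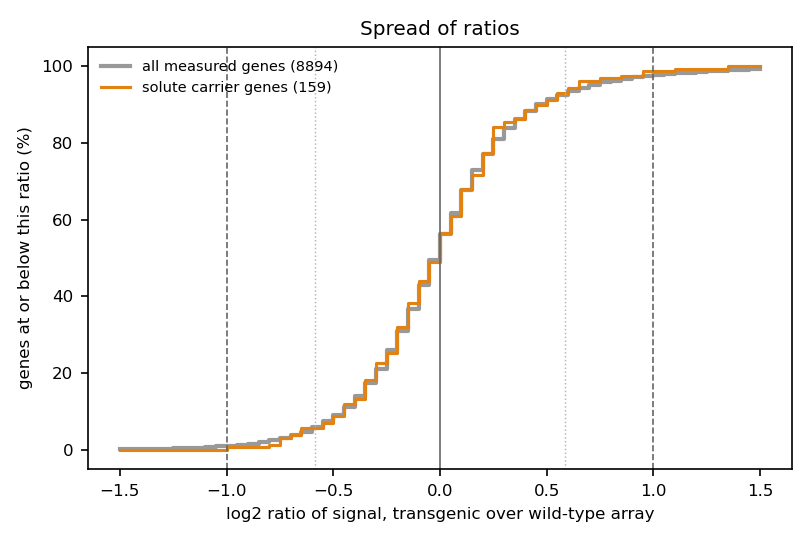
Share of genes (vertical axis, percent) whose log2 ratio of signal, transgenic over wild-type array, is at or below the value on the horizontal axis, for 159 solute carrier genes and 8894 measured genes, 1 array per genotype. Dashed lines mark 2-fold and dotted lines 1.5-fold. Both curves cross 0 at nearly the same height, and the member curve ends inside the 2-fold lines except for 3 genes.

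The 3 members past 2-fold were a lactate carrier, a glucose carrier and a mitochondrial iron carrier. Slc16a1 encodes MCT1, which carries lactate, pyruvate and ketone bodies together with a proton. Its 1 probe set read 129.9 on the transgenic and 51.9 on the wild-type array, 2.50-fold higher, the largest difference among the 144 members above the floor on both arrays. Slc2a1 encodes GLUT1, the facilitative glucose carrier of many tissues, the epidermis included. It read 154.9 against 74.1, 2.09-fold higher, and its other probe sets read 120.4 against 48.8 and 100.2 against 28.2, log2 ratios of 1.30 and at least 1.53. Slc2a1 was thus at least 2-fold higher by each of 3 probe sets. At the other end Slc25a37, which encodes mitoferrin-1 and brings iron into mitochondria for heme synthesis in developing red cells, read 155.2 against 318.5, 2.05-fold lower by its 1 probe set. Slc25a37 lies so close to the limit that centring all ratios on their median puts it at a log2 ratio of -0.99, under the limit.

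**Figure D2:**
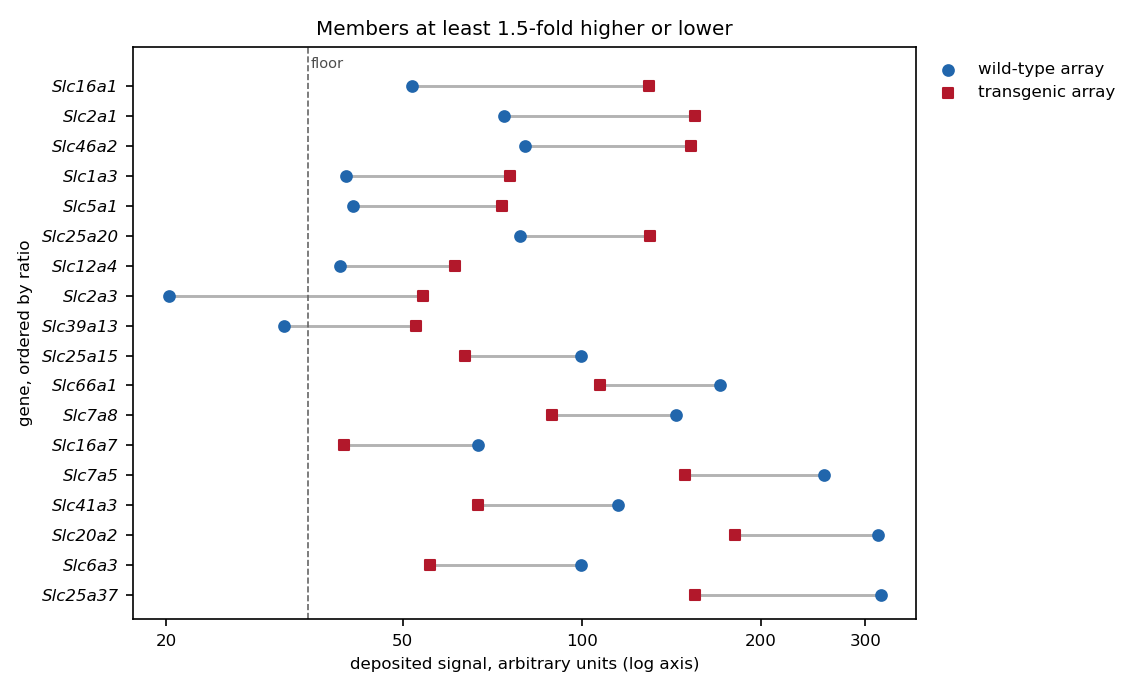
Deposited signals (horizontal log axis, arbitrary units) of the 18 members at least 1.5-fold higher or lower, with circles for the wild-type and squares for the transgenic array, 1 array each, joined by a line per gene and ordered by ratio. The dashed line is the floor of 34.7. Slc16a1 and Slc2a1 have the longest lines to the right with both ends above the floor, while the wild-type ends of Slc2a3 and Slc39a13 lie under it.

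The promoters of the carriers that led the list were read for the AhR core letters, since this receptor is what the transgene activates. RefSeq windows of 250 bases before to 50 after the annotated start were used (build GRCm38.p6), and windows were present for 120 of the 159 measured members. The Slc16a1 window is chr3:104638414-104638713 and the Slc2a1 window chr4:119108495-119108794, both on the plus strand, and Slc25a37 is named only. Capitals mark GCGTG or its reverse complement CACGC:
Slc16a1: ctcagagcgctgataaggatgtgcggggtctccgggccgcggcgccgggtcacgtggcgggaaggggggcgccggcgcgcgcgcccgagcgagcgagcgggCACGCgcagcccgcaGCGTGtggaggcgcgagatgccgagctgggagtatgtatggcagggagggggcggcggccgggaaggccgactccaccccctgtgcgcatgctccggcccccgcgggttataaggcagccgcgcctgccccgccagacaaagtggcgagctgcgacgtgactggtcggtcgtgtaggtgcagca
Slc2a1: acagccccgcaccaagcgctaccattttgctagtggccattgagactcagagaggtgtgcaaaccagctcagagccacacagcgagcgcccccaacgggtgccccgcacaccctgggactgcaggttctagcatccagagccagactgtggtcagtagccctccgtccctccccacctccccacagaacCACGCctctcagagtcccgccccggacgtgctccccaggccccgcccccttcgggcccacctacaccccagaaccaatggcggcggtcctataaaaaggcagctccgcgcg
The Slc16a1 window holds 2 matches, whose first letters lie 134 bases (gene strand) and 149 bases (opposite strand) before the start, and the Slc2a1 window holds 1, on the opposite strand, 61 bases before it. Such matches are common: 49.6% of the 9203 windows of measured genes and 32.4% of all 32851 windows contain one, and so do 77 of the 162 windows of measured members (47.5%). Among members at least 1.5-fold higher 5 of 8 windows held the letters, and among those at least 1.5-fold lower 3 of 6. The longer motif TNGCGTG, which contains the first, was in neither printed window and in 7.76% of the windows of measured genes. It was in 0 of the 8 windows of higher members and in 2 of the 6 of lower members, those of Slc25a15 and Slc41a3. A match describes the letters and shows no binding.

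Among glucose carriers the higher readings sat in a few genes. Of 15 members of this class 11 were measured, with 7 ratios above 0 and a median log2 ratio of 0.09. Above 0 were 63.6% of them, beside 43.6% of all measured genes. Of the 11, 3 were bounds measured on the transgenic array only: Slc2a10 (at least 0.09), Slc5a4a (at least 0.22) and Slc2a3. A bound of this kind can only lie above 0, and the class median is that of Slc2a10. The share and the median therefore rest in part on the floor. After Slc2a1, Slc5a1, the sodium-coupled glucose carrier SGLT1, read 73.4 against 41.2 (1.78-fold higher), and its other probe set lay under the floor on both arrays (12.0 and 4.1). Slc2a3, the high-affinity carrier GLUT3, read 54.0 against 20.2 and was at least 1.56-fold higher. The other probe sets of Slc2a3 were all under the floor, with transgenic signals of 4.3, 15.9 and 34.1 and wild-type signals of 1.1, 3.3 and 2.7. These 3 genes were the only members of the class past 1.5-fold, and none was lower by that much. Slc2a4, the insulin-responsive GLUT4 of muscle and fat, read 90.4 against 97.4 by its brighter probe set (log2 ratio -0.11) and had a ratio of 0.38 by the other. The lowest were Slc2a8, an intracellular sugar carrier, at 44.1 against 51.5 (-0.22), and Slc50a1 at 108.3 against 117.6 (-0.12). Slc2a5, the fructose carrier, had a log2 ratio of 0.08, Slc5a2, the renal SGLT2, of 0.25 and Slc45a3 of -0.00. With the floor at the 20th percentile the class median was 0.35, and Slc2a3 then stood at a log2 ratio of 1.42. With the floor at the 60th percentile (70.7) Slc5a1 fell to a log2 ratio of 0.05, and Slc2a3 lay under that floor on both arrays.

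Monocarboxylate carriers diverged between close relatives. The class had 8 members, 6 of them measured, with a median of 0.05. Slc16a3, the MCT4 lactate exporter of glycolytic cells, read 49.5 against 37.1 (0.42), on the same side as Slc16a1. Slc16a7, the high-affinity pyruvate carrier MCT2, went the other way at 39.8 against 66.9, 1.68-fold lower. Slc16a11 (0.20), Slc16a6 (-0.11) and the sodium-coupled Slc5a8 (-0.18) had ratios between those of Slc16a3 and Slc16a7.

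The glycolytic enzymes, which link glucose entry to lactate, read higher in most cases. Of 14 listed genes 11 could be named on the array, without Gpi1, Gapdh and Eno1, and all 11 were measured. A ratio above 0 was found for 8 (72.7%), beside 43.6% of all measured genes. The median was 0.42, beside -0.05 for all measured genes. None was at least 2-fold higher. The highest were Pkm, a pyruvate kinase, at 648 against 393.2 (log2 ratio 0.72) and Pfkp, a phosphofructokinase subunit, at 250.9 against 163.6 (0.62). The lowest were Pfkm, the muscle phosphofructokinase (-0.22), and Hk2, a hexokinase (-0.14). Ldha, the lactate dehydrogenase subunit, read 1195 against 860 (0.47).

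**Figure D3:**
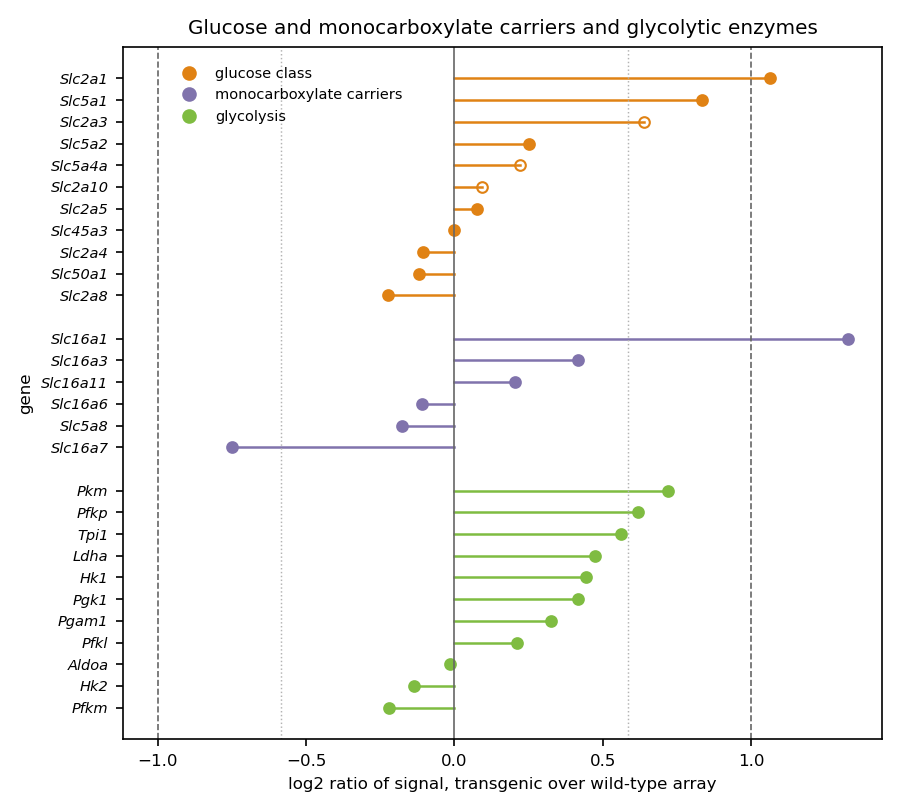
Log2 ratio of signal, transgenic over wild-type array, (horizontal axis) for the measured glucose-class and monocarboxylate carriers and the glycolytic enzymes, 1 array per genotype, 1 point per gene. Open points are bounds, dashed lines 2-fold and dotted lines 1.5-fold. Slc2a1 (1.06) and Slc16a1 (1.32) pass the 2-fold line, Slc16a7 (-0.75) lies on the far left, and 8 of 11 glycolytic genes lie right of 0.

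Amino acid carriers were split, with 23 of 37 measured, 11 above and 12 below 0, and a median of -0.05. Slc7a5 (LAT1), which exchanges large neutral amino acids, read 149.1 against 255.7, 1.71-fold lower. Its relative Slc7a8 (LAT2) read 89.0 against 144.0, 1.62-fold lower. Their shared heavy chain Slc3a2 (CD98), without which neither reaches the cell surface, read 587.7 against 607.0 (log2 ratio -0.05). Both light chains were lower, then, while the reading of the heavy chain hardly differed. Slc66a1, which exports cationic amino acids from lysosomes, read 107.2 against 171.1 (1.60-fold lower), and Slc38a3, a glutamine carrier, had a ratio of -0.56.

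At the upper end Slc1a3, the glutamate carrier GLAST, read 75.7 against 40.2 (1.88-fold higher), but a second probe set read 25.6 against 42.7, a bound on the other side of 0 (-0.30). Slc7a6, another light chain of CD98, read 105.6 against 70.6 (log2 ratio 0.58) and 68.3 against 66.4 by its other probe set (0.04). Slc6a20a, a proline carrier, was at least 0.55, and Slc6a6, the taurine carrier, 0.55. The glutamine and neutral amino acid carriers Slc1a5 (-0.10), Slc38a2 (0.14) and Slc38a1 (-0.45) stayed within 1.5-fold, as did the arginine carrier Slc7a1 (-0.25). Slc7a11, which imports cystine for glutathione synthesis, was under the floor on both arrays (23.4 and 21.2).

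The genes that respond to amino acid shortage, many of them targets of ATF4, were divided too. Of 12 on the array 10 were measured, 5 on each side of 0, with a median of 0.00 and none past 2-fold. Sesn2, a stress sensor of the sestrin family, read 51.1 against 92.7 (-0.86) and Chac1, a glutathione-degrading enzyme, 657.8 against 1147.8 (-0.80). Psat1, of serine synthesis, read 270.4 against 192.3 (0.49) and Trib3 was at least 0.27. Atf4 itself (0.05) and asparagine synthetase, Asns (-0.04), were nearly equal on both arrays.

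Zinc carriers were the most completely measured of the 5 main classes, 17 of 18, and 16 of them were within 1.5-fold, with a class median of 0.05. The exception, Slc39a13 (ZIP13), which moves zinc out of vesicles and is needed in connective tissue, read 52.6 against 31.6 and was at least 1.52-fold higher, a bound close to the floor. Slc39a14 (ZIP14), a zinc, iron and manganese importer, read 143.7 against 114.2 (0.33) and 78.4 against 67.7 by its other probe set (0.21). The lowest were Slc30a9 at 69.0 against 93.9 (-0.44) and Slc30a4, a vesicular zinc carrier, at 144.5 against 190.2 (-0.40). Slc30a1, the exporter of the plasma membrane, had a ratio of -0.37. Importers into the cytosol (Slc39a, 6 of 10 above 0) and exporters from it (Slc30a, 4 of 7 above 0) had the same median, 0.05. Slc39a4 (ZIP4), the zinc importer whose loss damages skin, lay at the floor with 34.9 against 41.8.

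Metallothioneins bind zinc in the cytosol. Mt1 read 919.1 against 449 (log2 ratio 1.03) and Mt2 1544.7 against 858.1 (0.85), while Mt4, the form of stratified epithelia, read 1038.4 against 1649.3 (-0.67). Mtf1, the zinc-sensing transcription factor, had a ratio of 0.53. Among these 4 measured genes of 5, Mt1 alone was past 2-fold, on the higher side.

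Of 9 carriers of other metals 8 were measured, 2 above and 6 below 0, with a median of -0.13. Slc41a3, a magnesium carrier, read 67.0 against 115.1 (1.72-fold lower) by 1 probe set and 42.0 against 38.9 (0.11) by another. Slc40a1, the iron exporter ferroportin, read 718.5 against 881.0 (-0.29) and Slc11a2, the iron importer DMT1, 74.6 against 94.1. Slc11a1, an ion carrier of macrophage phagosomes, was highest at 57.6 against 48.6 (0.25). Copper carriers Slc31a1 (-0.03) and Slc31a2 (0.11) hardly differed by their brightest probe sets. By the other probe set of each the ratios were -0.37 and -0.23.

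Most organic ion carriers, many of them known from liver and kidney, were not measurable in skin. Of 27 members 10 were measured, all within 1.5-fold, with a median of -0.04. Slc10a6, a carrier of steroid sulfates, was highest at 293.2 against 210.2 (0.48), followed by Slc10a3 at 112.4 against 104.8 (0.10). The lowest were Slc22a17, a receptor for lipocalin-2, at 87.7 against 109.0 (-0.31) and Slc17a3 at 37.7 against 44.8 (-0.25). Slc22a5, the carnitine carrier OCTN2, read 126.3 against 128.3. Carriers of similar substrates outside the Slc naming rule covered a wider range. Of 9 Slco genes 4 were measured, with Slco3a1 at 176.4 against 107.3 (0.72) and Slco2a1, a prostaglandin carrier, at 199.7 against 135.8 (0.56). At the other end Slco5a1 read 41.5 against 103.6 (2.50-fold lower) and Slco1a4 57.7 against 77.8 (-0.43). Of 9 Abc efflux pumps 3 were measured, Abcg2 (0.59), Abcc1 (0.31) and Abcc5 (-0.29), none of them past 2-fold.

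Only 2 of 5 fatty acid carriers were measured, and both read lower, as did 5013 of all 8894 measured genes. Slc27a4 (FATP4), an acyl-CoA synthetase that the epidermal barrier requires, read 242.7 against 352.8, 1.45-fold lower. Slc27a1 (FATP1), a form of muscle and fat, read 89.3 against 110.1, 1.23-fold lower. Slc27a2, Slc27a3 and Slc27a5 lay under the floor on both arrays. Other genes of fatty acid uptake and activation stayed near equality, all 8 measured within 1.5-fold and with a median of -0.04. They ran from Fabp5, the epidermal fatty acid binding protein (0.19), and Acsl5 (0.11) down to Fabp3 (-0.23) and the adipocyte protein Fabp4 (-0.26).

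Mitochondrial carriers, the Slc25a family, gave the largest number of measured genes, 28 of 33, with 18 below 0 and a median of -0.08. Above 0 were 35.7% of them, beside 43.6% of all measured genes. Besides Slc25a37, Slc25a15, the ornithine carrier of the urea cycle, was past 1.5-fold, at 63.6 against 99.9 (1.57-fold lower). Slc25a20, which brings acylcarnitines in for oxidation, read 130.4 against 78.6 (1.66-fold higher) by 1 probe set and 91.3 against 94.1 (-0.04) by the other. The phosphate carrier Slc25a3 read 1921.5 against 1792 (0.10) and the ADP/ATP carriers Slc25a5 and Slc25a4 had ratios of 0.16 and -0.20. These carriers, which serve oxidative phosphorylation, were within 1.2-fold by their brightest probe sets. Other probe sets of Slc25a5 ran from -0.33 to 0.06, and the other measured ones of Slc25a4 had ratios of -0.22 and 0.06. Both ADP/ATP carriers thus had probe sets on both sides of 0.

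In the other classes few members stood out. Slc46a2, of the family that holds the intestinal folate carrier, read 152.6 against 80.4 (1.90-fold higher). The rest of the vitamin and choline class ran from Slc44a1, a choline carrier (459.0 against 589.3, -0.36), to Slc44a2 (0.19). Among carriers of phosphate and sulfate Slc20a2 read 181.1 against 314.7 (1.74-fold lower), yet 241.5 against 188.6 by its other probe set (0.36). Its relative Slc20a1 had a ratio of 0.41 and the sulfate carrier Slc26a2 of 0.40.

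Slc12a4 (KCC1), a potassium-chloride cotransporter, read 61.3 against 39.2 (1.56-fold higher), and Slc12a7 (KCC4) 52.6 against 68.2 (-0.37, and 0.26 by its other probe set). Slc6a3, the dopamine carrier, read 55.6 against 99.7 (1.79-fold lower) and the vesicular amine carrier Slc18a1 was at least 0.26. All 3 measured peptide carriers were lower, Slc15a2 (-0.47), Slc15a1 (-0.46) and Slc15a4 (-0.35), as were 5013 of all 8894 measured genes.

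The remaining classes lay within 1.5-fold throughout. Sugar phosphate carriers ran from Slc37a3 (-0.38) to Slc37a2 (0.53), nucleoside carriers from Slc29a3 (-0.48) to Slc29a1 (0.22), and nucleotide sugar carriers of the Golgi from Slc35a1 (-0.44) to Slc35a3 (0.08). The anion exchangers Slc4a1 (75.2 against 74.8, 0.01) and Slc4a2 (119.2 against 114.8, 0.05) read nearly alike. Slc5a5, the iodide carrier, had a ratio of -0.34 and Slc6a8, the creatine carrier, of 0.28. The name-only matches Slc9a3r1 and Slc4a1ap had ratios of -0.50 and 0.53.

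**Figure D4:**
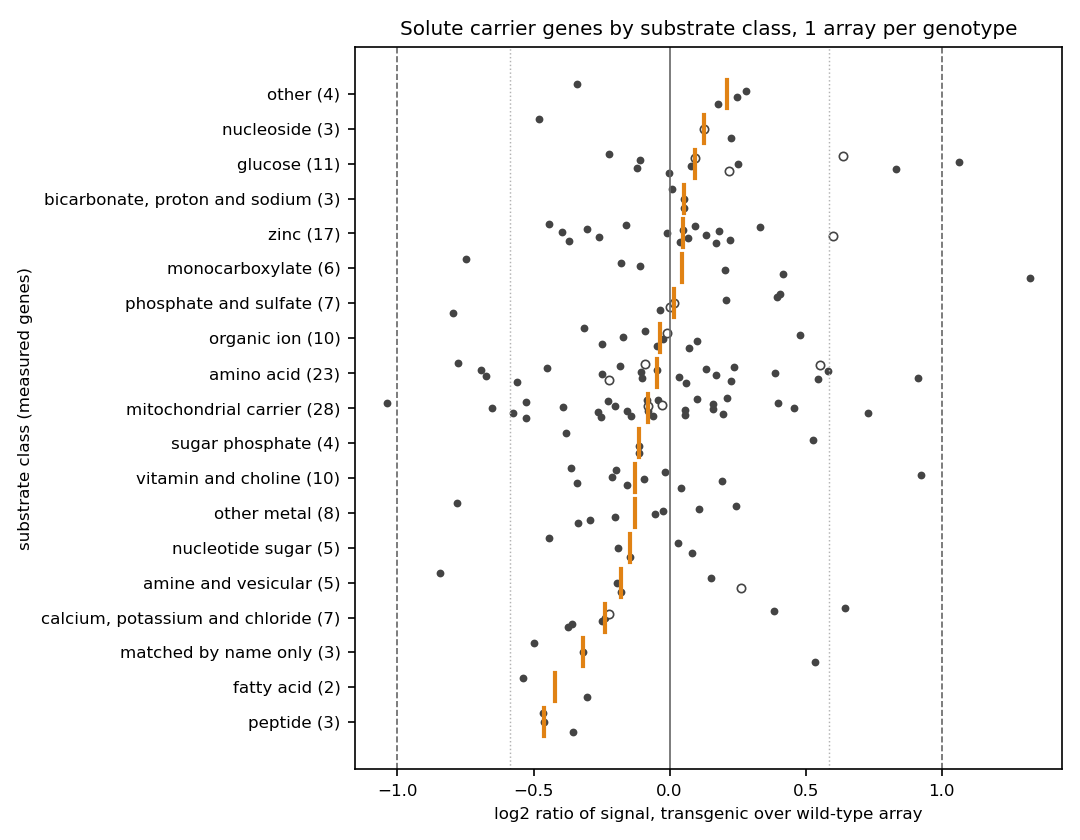
Log2 ratio of signal, transgenic over wild-type array, (horizontal axis) of the 159 measured members by substrate class (vertical axis, with the number measured), 1 point per gene and 1 array per genotype. Open points are bounds, bars are class medians, dashed lines mark 2-fold and dotted lines 1.5-fold. Class medians run from -0.46 (peptide) to 0.21 (other), and 3 genes lie past the 2-fold lines.

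Different probe sets of a gene gave the only internal check on these ratios. Over 36 members with exactly 2 probe sets that both arrays measured, the difference between the log2 ratios of the 2 was taken. It gave an SD of 0.286 for 1 probe set, beside 0.265 over 1764 genes of the whole array. The probe sets of a gene read the same RNA, so this SD holds no variation between animals, labellings or arrays. A difference of 1.5-fold is 0.58 on the log2 scale. Of the 18 members past 1.5-fold, 10 have a single probe set, 3 have others that were all under the floor, and 5 have a second measured one. Only Slc2a1 among these 5 kept 1 direction in all its probe sets. In Slc1a3, Slc25a20, Slc20a2 and Slc41a3 the probe sets lay on both sides of 0. Over the whole array the probe sets differed in sign in 73 of 343 such genes (21.3%).

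**Figure D5:**
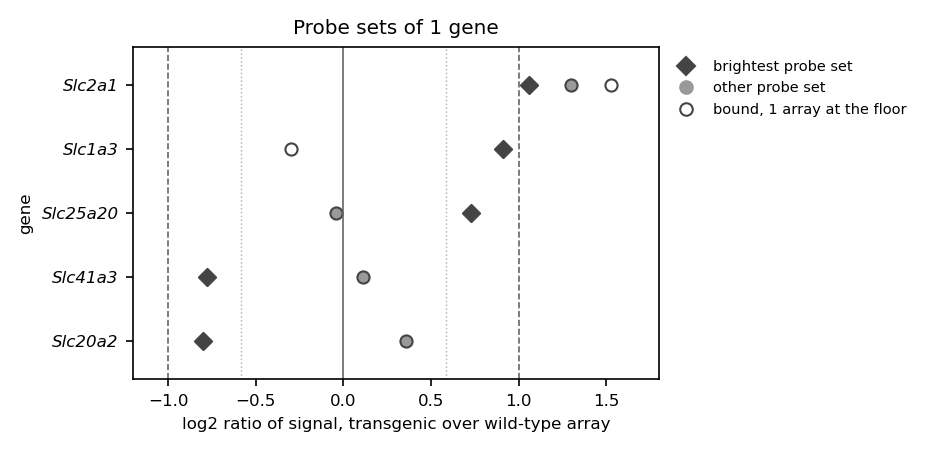
Log2 ratio of signal, transgenic over wild-type array, (horizontal axis) by probe set for the 5 members past 1.5-fold with more than 1 measured probe set, 1 array per genotype. Diamonds are the brightest probe set, circles the others, open circles bounds, dashed lines 2-fold and dotted lines 1.5-fold. The 3 probe sets of Slc2a1 all lie right of the 2-fold line, and the other 4 genes have points on both sides of 0.

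Marker signals of several skin cell types differed between the arrays. In whole tissue a change in the number of cells of a type and a change in RNA per cell cannot be told apart. Of 12 macrophage markers 11 were measured and all were higher, from Adgre1 (0.54) to C1qa (2.59), with a summed signal of 2985 against 975 on the wild-type array. Mast cell markers summed to 932.5 against 556.0 and ran from Kit (-0.46) to Mcpt4 (1.23). Keratinocyte markers, from Dsp (0.01) to Krt1 (2.61), summed to 17938 against 11288. Lower were melanocyte markers, from Tyr (-1.31) to Sox10 (-0.05) and 1390 against 2706 in sum, skeletal muscle markers, from Des (-0.95) to Acta1 (0.07) and 4811 against 5890, and hair follicle markers, from Msx2 (-0.74) to Krt71 (0.08) and 17971 against 20583.

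Other cell types gave smaller or less complete readings. Endothelial markers summed to 298.5 against 255.3, from Tek (-0.54, a bound with the transgenic array under the floor) to Kdr (0.65). Adipocyte markers summed to 3108 against 3325, from Fabp4 (-0.26) to Cidec (0.51). All marker sums cover every listed gene on the array, those under the floor included. Of the sebocyte list 3 genes were on the array, from Scd3 (-1.38) to Dgat2 (0.44), and of the Schwann cell list 2 were measured, Mbp (-0.35) and Pmp22 (0.21). Of the erythroid list only Alas2, the first enzyme of heme synthesis in red cells, was measured, at 48.1 against 63.3 (-0.40), while Hba-a1 and Epb42 lay under the floor. The part of cell composition in the ratios of Slc16a1, Slc2a1, Slc25a37 and the other carriers was not tested.

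The 85 members under the floor on both arrays read at most 34.4. They include 17 organic ion carriers, 14 amino acid carriers, 4 glucose carriers (among them Slc2a2, the GLUT2 of liver and pancreas, at 5.0 and 7.6) and 1 zinc carrier, Slc30a2. Gaps under the floor ran both ways: Slc15a3, a peptide carrier of macrophage lysosomes, read 23.4 against 2.7 and the monocarboxylate carrier Slc16a8 8.3 against 29.4. No ratio is given for any of the 85, since readings under the floor have no order here.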

How the data were processed

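Values were the deposited intensities, 1 linear signal per probe set and array, that the authors had scaled to equal trimmed means (as the values show; which software made them is not known here). Scanner files and detection calls were not used here. Of 22690 probe sets 64 were controls; of the others 20380 had 1 gene in the platform annotation of 2016, 691 several and 1555 none, and only the first were named, with symbols updated through GRCm38.p6 (29 not found). Of the probe sets with several genes 3 name a solute carrier, and all read at most 6.7.

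Signals were rescaled to equal 2% trimmed means, raised to the floor and put on a log2 scale (Python 3.11.15, pandas 2.3.3, numpy 2.4.6). The calculation was checked on simulated arrays. With 1 array per group the number of arrays limits the precision. Genes named are all members past 1.5-fold, the 2 highest and 2 lowest of each main class and pathway list, and the highest and lowest of other classes and marker lists; further genes were chosen after their values were seen, as were the calls under other floors. Members, classes and lists were chosen with earlier results of these data known, and Slc4a1ap was moved to the name-only matches after the values were seen. Symbols of the Slc pattern stand for 1 more gene that is not reported here. Alternatives changed the scaling, floor, pseudocount, probe set choice and fold limit.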

Additional observations from a re-analysis of the deposited data

How the results depend on the processing

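The median log2 ratio of the members stayed within 0.1 of its value under all 9 alternatives tried. The count of members at least 2-fold higher (2) became 7 with the floor at the 20th percentile, 1 with the floor at the 60th percentile, 1 with a pseudocount of 16, 9 at a limit of 1.5-fold and 0 at 3-fold. The count at least 2-fold lower (1) became 0 with centring on the median, with lowess centring, with the pseudocount, without suffixed probe sets and at 3-fold, 2 under the 20th percentile floor and 9 at 1.5-fold. The genes added by the lower floor were Slc2a3, Slc6a20a, Slc13a3, Slc19a3, Slc29a2 (higher) and Slc16a8 (lower), all with a signal under 34.7 on at least 1 array. Slc16a1 had a log2 ratio of 0.88 at the 60th percentile floor and Slc2a1 0.92 with the pseudocount. Of 418 values of named genes under alternatives, 399 kept their side of the limit and, for genes under it, moved by no more than 0.265, and none of the 3 genes past 2-fold changed sign. Of 171 class medians 20 moved by 0.1 or more. No paired analysis was possible because each group has 1 array.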
